A study of Rattus norvegicus with 16 samples.

Results

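The change of the curcumin effect between 6 and 12 weeks was examined in the cortex of aged rats, on 8 of the 16 arrays of the series. The 8 arrays are all those labelled cortex, and the other 8 hold hippocampus. All animals were male Sprague-Dawley rats labelled 15-month-old, given control chow or chow with curcumin, at 480 mg per kg of feed, for 6 or 12 weeks. The study's methods give 15 months as the age at the start of the experiment, so rats of the 12-week groups were older when killed. Each of the 4 cortex groups (control 6 weeks, curcumin 6 weeks, control 12 weeks, curcumin 12 weeks) has 2 arrays, and each array was hybridised with RNA pooled from 3 rats. Each duration has its own control arrays. By the labels the 2 arrays are biological replicates, but the study's methods describe duplicate arrays of an RNA sample, and all p-values here reflect only array-to-array spread, which may be technical. The value followed throughout is the difference of effects, curcumin minus control at 12 weeks minus the same at 6 weeks, on the log2 scale. It is negative where curcumin arrays moved downward relative to their controls between 6 and 12 weeks.

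Curcumin is the yellow polyphenol of turmeric, studied for its antioxidant and anti-inflammatory actions. The cerebral cortex is built of glutamatergic projection neurons and GABA interneurons, together with astrocytes, oligodendrocytes, microglia and vessels, so bulk RNA follows all of them. In such samples fewer cells of a type and less RNA per cell cannot be told apart. Major histocompatibility complex (MHC) class II proteins present peptides to helper T cells and are carried in the brain by few cells, mainly activated microglia and macrophages near vessels and meninges. Sterol synthesis supplies cholesterol for membranes and myelin and is switched on by the SREBP factors when sterol is low.

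The promoters of genes from these last groups are shown because several of their members changed together. The windows run from 250 bases before to 50 bases after the RefSeq start (build GRCr8), 5′ to 3′, with every CCAAT box (ATTGG on either strand) in capitals.
Cd74, chr18:56526956-56527255, + strand: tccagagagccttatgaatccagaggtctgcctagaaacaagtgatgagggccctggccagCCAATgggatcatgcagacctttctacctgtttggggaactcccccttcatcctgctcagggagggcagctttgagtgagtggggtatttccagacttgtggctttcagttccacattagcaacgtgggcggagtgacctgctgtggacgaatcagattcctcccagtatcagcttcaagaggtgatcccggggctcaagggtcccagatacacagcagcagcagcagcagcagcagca
RT1-Da, chr20:4515165-4515464, + strand: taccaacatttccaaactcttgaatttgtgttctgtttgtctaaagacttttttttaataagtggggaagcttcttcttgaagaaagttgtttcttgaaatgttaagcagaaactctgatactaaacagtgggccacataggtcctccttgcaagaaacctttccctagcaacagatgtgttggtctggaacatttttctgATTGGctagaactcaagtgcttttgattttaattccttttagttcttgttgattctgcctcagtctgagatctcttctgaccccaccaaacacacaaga
RT1-Ba, chr20:4576807-4577106, + strand: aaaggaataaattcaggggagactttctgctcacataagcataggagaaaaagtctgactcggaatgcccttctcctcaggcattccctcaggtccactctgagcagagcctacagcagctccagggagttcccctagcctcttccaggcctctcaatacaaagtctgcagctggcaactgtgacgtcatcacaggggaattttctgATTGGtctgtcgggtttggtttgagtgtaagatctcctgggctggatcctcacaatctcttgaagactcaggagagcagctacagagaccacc
RT1-Db1, chr20:4560113-4560412, - strand: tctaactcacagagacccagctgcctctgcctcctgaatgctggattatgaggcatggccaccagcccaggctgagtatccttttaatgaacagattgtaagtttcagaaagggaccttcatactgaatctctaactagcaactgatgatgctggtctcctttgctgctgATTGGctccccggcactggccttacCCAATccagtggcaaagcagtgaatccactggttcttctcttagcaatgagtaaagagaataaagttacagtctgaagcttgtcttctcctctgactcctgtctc
Msmo1, chr16:29746863-29747162, + strand: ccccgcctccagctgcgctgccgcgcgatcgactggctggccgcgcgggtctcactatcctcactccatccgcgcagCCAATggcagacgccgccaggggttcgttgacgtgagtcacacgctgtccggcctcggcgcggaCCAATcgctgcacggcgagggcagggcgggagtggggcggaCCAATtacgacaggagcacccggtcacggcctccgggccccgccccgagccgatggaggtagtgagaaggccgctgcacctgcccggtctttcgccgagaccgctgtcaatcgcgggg
Nsdhl, chrX:155817110-155817409, + strand: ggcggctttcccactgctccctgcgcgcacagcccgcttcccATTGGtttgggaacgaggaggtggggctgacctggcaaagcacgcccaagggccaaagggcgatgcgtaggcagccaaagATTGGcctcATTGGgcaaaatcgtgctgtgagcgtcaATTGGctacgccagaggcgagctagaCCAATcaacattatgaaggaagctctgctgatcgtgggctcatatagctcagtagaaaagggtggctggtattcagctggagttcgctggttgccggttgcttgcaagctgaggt
A CCAAT box stood in all 8 MHC class II windows found among the 10 listed genes, and in 15 of 19 windows found among the 26 listed sterol genes, compared with 37.7% of all 27457 promoter windows. Counted from the start, the nearest box began at -49 in RT1-Da, -43 in RT1-Ba, -55 in RT1-Db1, -107 in RT1-DOa and -189 in Cd74, and at -68 in Msmo1 and -65 in Nsdhl. The windows of genes called in the comparison held it in 25 of 48 genes with a higher and 62 of 179 genes with a lower effect at 12 weeks. The letters of the sterol element, TCACNCCAC on either strand, were in 0 of the 19 sterol windows and in 1.15% of all windows. These matches are descriptions of letters, not of bound sites.

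The cortex label was checked against the hippocampus on genes of the dentate gyrus. Prox1 ran from 5.71 to 6.81 on the cortex arrays and from 7.31 to 8.07 on the hippocampus arrays (log2 values), and C1ql2 from 5.93 to 6.53 and from 7.86 to 8.77. Fezf2, Neurod6 and Slc17a7, genes of projection neurons, did not mark the cortex, with medians of 7.87, 8.28 and 10.50 there and 8.32, 9.74 and 10.67 in the hippocampus. The cortex arrays of a group correlated at 0.990 to 0.995 across the 27342 transcript clusters (a cluster is the set of probes for a transcript), and 196 to 585 clusters differed by 1.5-fold or more between the arrays of a group, most often between the 6-week controls.

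The 6-week control arrays differed from the other cortex arrays on several marker lists of regions and cell types, in part on 1 array alone. Summed over the measured members on the linear scale, the 11 measured of 18 projection neuron markers gave 4548 to 4944 on the 6-week control arrays, 6998 to 7296 with curcumin at 6 weeks, 6852 to 7244 in 12-week controls and 6682 to 8215 with curcumin at 12 weeks. The 9 measured of 14 olfactory bulb markers gave 1475 to 3018, 865 to 949, 1017 to 1137 and 736 to 1040 in the same order. The 17 measured of 22 myelin markers gave 9985 to 13359, 5134 to 9558, 7136 to 9907 and 6183 to 8175. Sums for the 12 measured of 14 striatal markers were 1929 to 6438, 1838 to 3479, 1820 to 4412 and 1851 to 2542, with the highest value on control array 1 at 6 weeks. All 15 hypothalamic markers were measured, with sums of 1048 to 2281, 834 to 951, 879 to 908 and 838 to 1828, where control array 2 at 6 weeks and curcumin array 2 at 12 weeks were high. For 6 measured of 8 red blood cell genes the sums were 856 to 2196, 568 to 625, 812 to 1170 and 743 to 827. The projection neuron list had 4 called members, described below, and the other 5 lists had 0 (limma). The part of these differences in the results was not tested.

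**Figure D1:**
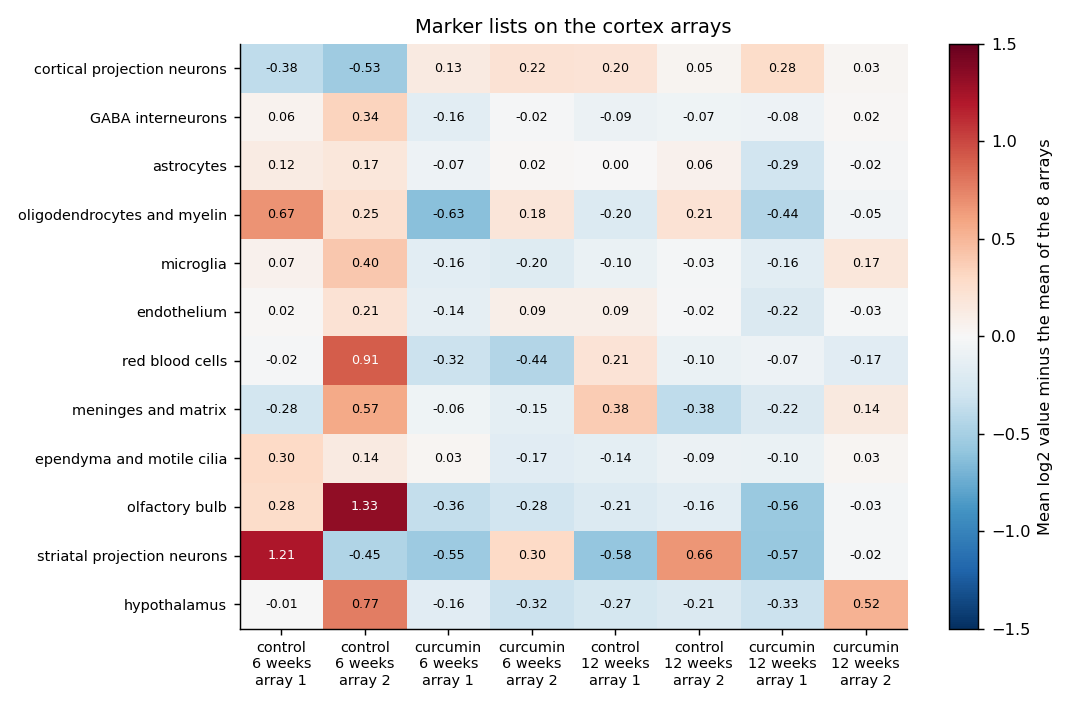
Mean log2 value of each marker list on each cortex array, minus the mean of the 8 arrays (colour and printed numbers). Projection neuron markers were lowest on both 6-week control arrays (-0.38 and -0.53), olfactory bulb markers were highest on control array 2 (1.33) and striatal markers on control array 1 (1.21) at 6 weeks.

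The curcumin effect in the cortex differed between 6 and 12 weeks at 402 of 27342 clusters. limma (adjusted p under 0.05 over all clusters) called 122 clusters with a higher effect at 12 weeks (0.446% of clusters) and 280 with a lower one (1.02%), and 4020 had an unadjusted p under 0.05. Quantile normalization moved this split, to 273 higher and 363 lower over all arrays and to 261 and 343 within each tissue. Of the 402, 27 had effects of the same sign at the 2 durations and the others of opposite sign, beside 51.4% of all clusters with opposite signs. Picking clusters by a large difference of effects favours opposite signs, so this count is no separate evidence of reversal. The median effect of the lower clusters went from 0.25 at 6 weeks to -0.41 at 12 weeks, and that of the higher clusters from -0.19 to 0.49. Across all clusters the 6-week and 12-week effects were correlated at -0.05, a description over clusters that share arrays within each duration. Counted by genes with a cluster of their own, 55 of 14324 were higher (0.384%) and 210 lower (1.47%).

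Reversals were counted where both curcumin arrays lay above both control arrays at 1 duration and below both at the other. Among the called clusters, 219 went from above to below the controls (0.801% of all clusters) and 77 from below to above (0.282%). Without regard to the test, 1372 clusters (5.02%) showed the former order and 1082 (3.96%) the latter. The effects themselves were rarely called at both times. At 6 weeks alone 29 clusters were called (0.106%), 27 higher and 2 lower, at 12 weeks 885 (3.24%), 449 higher and 436 lower, and 116 of the 402 were called at neither time. Only 2 reversed clusters were called at both times, Ncs1 and Abhd8.

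Single arrays decided most of these calls. When each cortex array was left out in turn, with the remaining array of its group taken to vary like the other groups, 8 of the 402 clusters stayed called in all 8 fits and 13 in none. Without curcumin array 2 at 12 weeks 8 of the 402 remained called, without control array 1 at 12 weeks 9, without control array 2 at 6 weeks 17, without curcumin array 2 at 6 weeks 54, without control array 2 at 12 weeks 148, without curcumin array 1 at 6 weeks 177, without curcumin array 1 at 12 weeks 264 and without control array 1 at 6 weeks 371. A fit on the 8 cortex arrays alone called 1 cluster, the unnamed one described below, so the other calls rest on a spread estimated together with the hippocampus arrays. All 59 called genes named here kept the sign of their difference of effects in every alternative fit, and 54 of them lost the call without each of control array 1 at 12 weeks, curcumin array 2 at 12 weeks and control array 2 at 6 weeks. Genes whose call stood in all 8 fits are therefore given before the others. That the named genes kept their sign is little evidence, since they were picked on these same arrays.

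**Figure D2:**
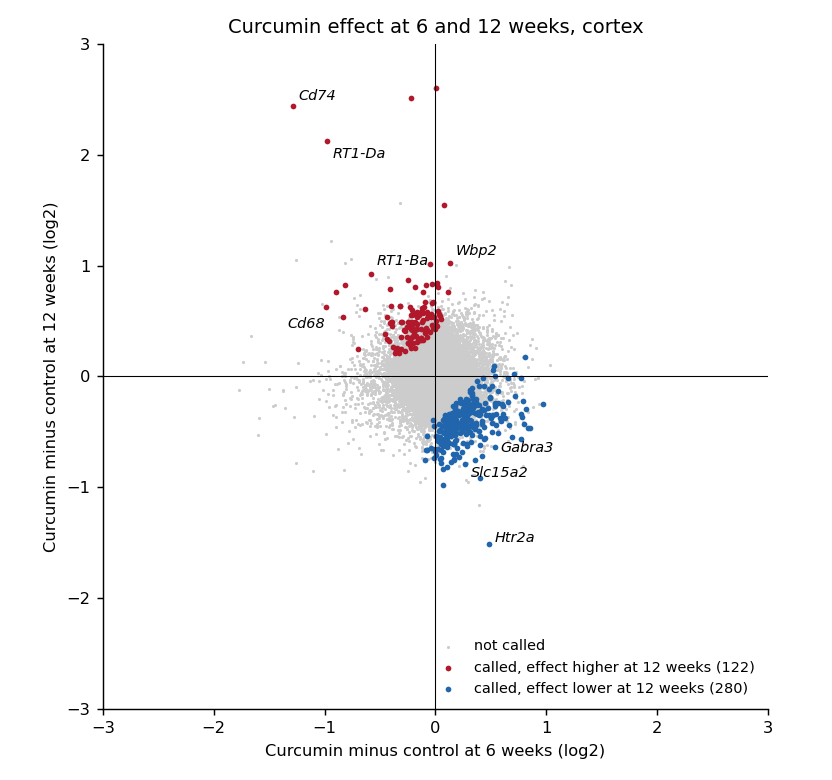
Curcumin effect at 6 weeks (x axis) and 12 weeks (y axis) in the cortex, log2, for all clusters (grey), with the 122 clusters called higher (red) and the 280 called lower (blue) at 12 weeks. Most coloured points lie in the upper left and lower right parts, where the effect changed sign, which picking large differences favours. Cd74, RT1-Da and Htr2a lie far from the rest.

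The 5 named genes whose call stood in every leave-one-out fit were Slc15a2, Mob4, Cox11, Wbp2 and Meg3. Slc15a2, a proton-coupled carrier of small peptides, measured 8.87 and 9.0 with curcumin at 6 weeks, 8.65 and 8.69 in 6-week controls, 8.41 and 8.45 with curcumin at 12 weeks and 9.22 on both 12-week control arrays. Its curcumin arrays lay above the controls at 6 weeks and below them at 12 weeks, with no overlap. The effect went from 1.20-fold to 0.579-fold, a difference of -1.06 ± 0.08 (SE, adjusted p = 8.0e-04, n = 2 arrays per group). Mob4, a component of the striatin phosphatase complex, measured 9.35 and 9.34, 9.14 and 9.11, 8.78 and 8.72, and 9.47 and 9.49 in the same order of groups. It too was above the controls at 6 weeks and below them at 12 weeks, with a difference of -0.94 ± 0.08 (adjusted p = 0.00131). For Cox11, a copper chaperone in the assembly of cytochrome c oxidase that was chosen after its values were seen, the arrays gave 7.47 and 7.48, 7.30 and 7.31, 7.18 and 7.19, and 7.79 and 7.81. Cox11 reversed in the same direction, by -0.78 ± 0.09 (adjusted p = 0.00634). In all 3 genes the controls rose from 6 to 12 weeks while the curcumin arrays fell.

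Wbp2, a coactivator of steroid receptors, and Meg3, a noncoding RNA of an imprinted locus, ran the other way. Wbp2 measured 8.71 and 8.82 with curcumin at 6 weeks, 8.69 and 8.59 in 6-week controls, 9.45 and 9.43 with curcumin at 12 weeks and 8.41 and 8.42 in 12-week controls. It was no reversal, since curcumin was 1.09-fold the control at 6 weeks and 2.03-fold at 12 weeks, a difference of 0.89 ± 0.09 (adjusted p = 0.0030). Meg3, one of the brighter clusters, measured 11.06 and 11.13, 11.26 and 11.16, 11.59 and 11.60, and 10.80 and 10.86. Its curcumin arrays were below both controls at 6 weeks and above both at 12 weeks, and the difference was 0.87 ± 0.08 (adjusted p = 0.0024). Over the 8 leave-one-out fits the adjusted p ran from 0.0034 to 0.031 for Wbp2 and from 0.0026 to 0.029 for Meg3. Of 15 measured steroid receptor coregulators Wbp2 alone was called (list median 0.14), and of 10 measured imprinted genes Meg3 alone (median 0.14, with Nnat at 1.44 and Snrpn at -0.85, not called), against a median of 0.00 over all clusters. In the striatin complex Mob4 was the only 1 of 13 genes called (median -0.18). Of all genes, 0.384% were called higher and 1.47% lower. These lists were chosen with earlier results of these data known, so the call of the leading gene tells nothing about its list. The 3 other clusters that stayed called carry no gene symbol here, and the largest of them was 4.89 and 4.85, 4.83 and 4.90, 7.67 and 7.46, and 4.98 and 4.94 in the group order above, with curcumin higher at 12 weeks and a difference of effects of 2.60.

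Wbp2, Meg3, Cox11, Slc15a2 and this unnamed cluster were also the 5 clusters (0.0183%) whose difference between durations was called as different between cortex and hippocampus, with 2163 at an unadjusted p under 0.05. The cortex minus hippocampus value was 0.98 for Wbp2, 1.01 for Meg3, -1.01 for Cox11, -1.0 for Slc15a2 and 2.77 for the unnamed cluster (adjusted p = 0.041, 0.030, 0.030, 0.030 and 1.8e-04). The count fell to 1 without any of 6 of the 8 cortex arrays, rose to 71 without control array 1 at 6 weeks, and was 0 without the dimmest 25% of clusters. In the hippocampus by itself limma called 0 clusters for the difference between durations, and 939 had an unadjusted p under 0.05. Of the 402 cortex clusters, 257 had the same sign in the hippocampus. The share over all clusters was not counted, so this number is not read as agreement between the tissues.

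**Figure D3:**
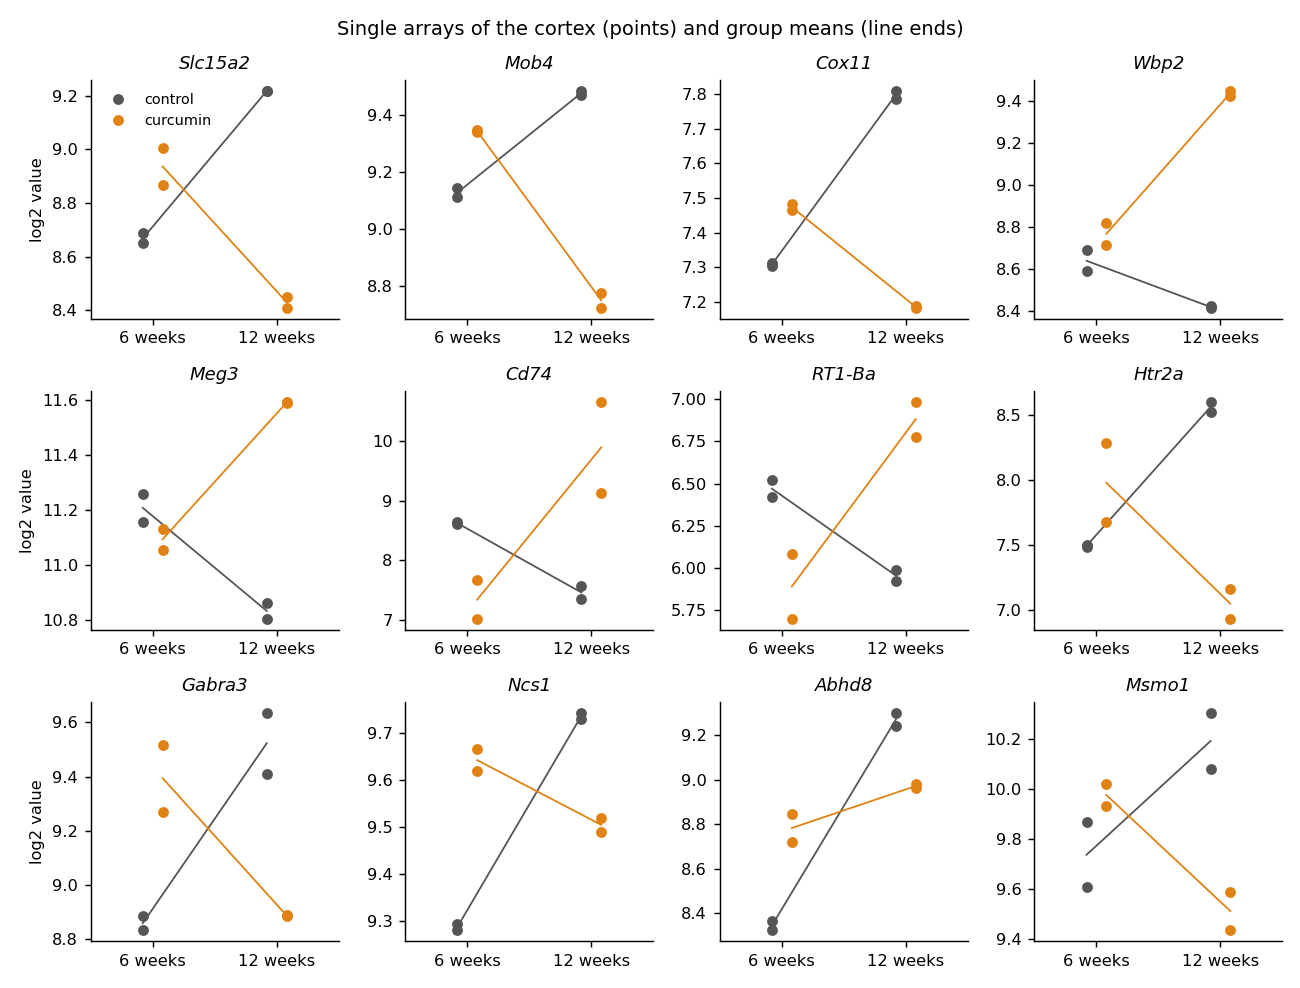
Log2 value of 12 genes on the single cortex arrays (points) at 6 and 12 weeks, control in grey and curcumin in orange, with lines joining the group means. The lines cross in every panel except Wbp2, where the curcumin arrays are above the controls at both durations.

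Cd74 and RT1-Da, of the MHC class II group, had the highest differences of effects among the named genes. All 10 listed genes had a positive difference of effects, compared with 49.8% of all genes, and 4 were called higher, compared with 0.384%, with a list median of 0.41. Positive differences were not particular to this list. Higher medians were found for hypothalamus (1.11, 14 of 15 positive), olfactory bulb (0.81, 9 of 9) and red blood cell genes (0.66, 6 of 6), with 0 calls. The same held for myelin genes (0.51, 16 of 17) and genes of ependyma and motile cilia (0.42, 9 of 10). Cd74, the invariant chain that guides class II assembly, measured 7.01 and 7.66 with curcumin and 8.64 and 8.60 without it at 6 weeks, and 9.13 and 10.67 with curcumin and 7.34 and 7.57 without it at 12 weeks. Curcumin arrays were thus below the controls at 6 weeks and above them at 12 weeks, at 0.410-fold and 5.43-fold, a difference of 3.73 ± 0.64 (adjusted p = 0.0256). The arrays of RT1-Da, an alpha chain, gave 6.36 and 6.82 with curcumin and 7.38 and 7.75 in controls at 6 weeks, and 8.14 and 9.69 against 6.93 and 6.66 at 12 weeks. It reversed in the same way, by 3.10 ± 0.67 (adjusted p = 0.0496). The alpha chain gene RT1-Ba followed at 1.51 ± 0.27 (adjusted p = 0.0295), and RT1-Db1, a beta chain, was flat at 6 weeks (-0.01) and higher at 12 weeks (0.46). Both curcumin arrays at 12 weeks were above the controls for all 4 genes, and array 2 was above array 1 in each of them. The 4 genes were picked by their call, so this order is no separate evidence. Of the 122 clusters called higher, 97 were also called at 12 weeks. The 4 calls were lost without each of 6 or 7 of the 8 arrays, among them curcumin array 2 and control array 1 at 12 weeks and control array 2 at 6 weeks, with adjusted p up to 0.13 for Cd74 and its difference of effects from 2.96 to 4.50. The RT1 genes are a family of similar sequences, so their probes may share signal.

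The class II activator Ciita did not move with them (0.01 at 6 weeks, 0.07 at 12 weeks), and RT1-DMa, RT1-DMb, RT1-DOa, RT1-DOb and RT1-Bb had differences from 0.02 to 0.41 that were not called. MHC class I and peptide loading genes had a positive difference in 10 of 11 measured members and 0 calls (median 0.18). Interferon response genes were positive in 12 of 17, with 0 calls (median 0.14). Of the microglial markers 16 of 18 were measured and 12 were positive (median 0.40). Cd68, a lysosomal protein of phagocytes, was the member called, at 5.45 and 5.56 with curcumin and 5.97 and 6.70 in controls at 6 weeks, and 5.92 and 6.28 against 5.60 and 5.52 at 12 weeks. Its difference of effects was 1.37 ± 0.27 (adjusted p = 0.0369), and without control array 2 at 6 weeks it was 1.01. C1qa, C1qb and C1qc, the complement C1q chains, had differences of 1.05, 0.85 and 1.09 that were not called. P2ry13 (-0.05) and Tmem119 (-0.22, the lowest of the list) were among the 4 negative markers. The summed microglial level was 3126 to 3917 in 6-week controls, 2528 to 2680 with curcumin at 6 weeks, 2790 to 3133 in 12-week controls and 2613 to 3341 with curcumin at 12 weeks. T-cell markers had a median near 0, at 0.01 and after quantile normalization -0.0015, with 0 of 13 called. The part of these cell type levels in the class II values was not tested.

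Sterol synthesis genes went the other way as a group. Of 26 listed genes 20 were measured, and 19 had a negative difference of effects (median -0.44), compared with 50.2% of all genes. Called lower were 3, compared with 1.47% of all genes. With curcumin 14 were higher at 6 weeks and lower at 12 weeks, an order of signs that 26.9% of all genes showed. The median effect was 0.25 at 6 weeks and -0.27 at 12 weeks. In controls the list rose by a median of 0.37 from 6 to 12 weeks, and with curcumin it changed by -0.08. Negative differences were not particular to sterol synthesis. Solute carriers of peptides, vitamins and nucleotide sugars had 19 of 21 negative (median -0.13), with 3 called lower. Endosome trafficking genes had 17 of 20 negative (median -0.22), with 1 called lower. Of these 20, 12 were higher at 6 weeks and lower at 12 weeks. Msmo1, a sterol oxidase, measured 9.93 and 10.02 with curcumin and 9.87 and 9.61 in controls at 6 weeks, and 9.44 and 9.59 against 10.31 and 10.08 at 12 weeks. Its curcumin arrays were above the controls at 6 weeks and clearly below them at 12 weeks, and the difference was -0.92 ± 0.14 (adjusted p = 0.0204). Acat2, which makes acetoacetyl-CoA, fell by 0.76 ± 0.13 (adjusted p = 0.0258) and Nsdhl, a sterol dehydrogenase, by 0.73 ± 0.15 (adjusted p = 0.0403). Idi1 and Cyp51 had differences of -0.70 and -0.68 that were not called, and Lss was the measured gene with a positive value (0.19). All 3 calls were lost without control array 1 or curcumin array 2 at 12 weeks and without either array 2 at 6 weeks, where the values stayed between -1.05 and -0.60. The promoters of Msmo1 and Nsdhl are printed above, and that of Acat2 holds 0 CCAAT boxes.

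**Figure D4:**
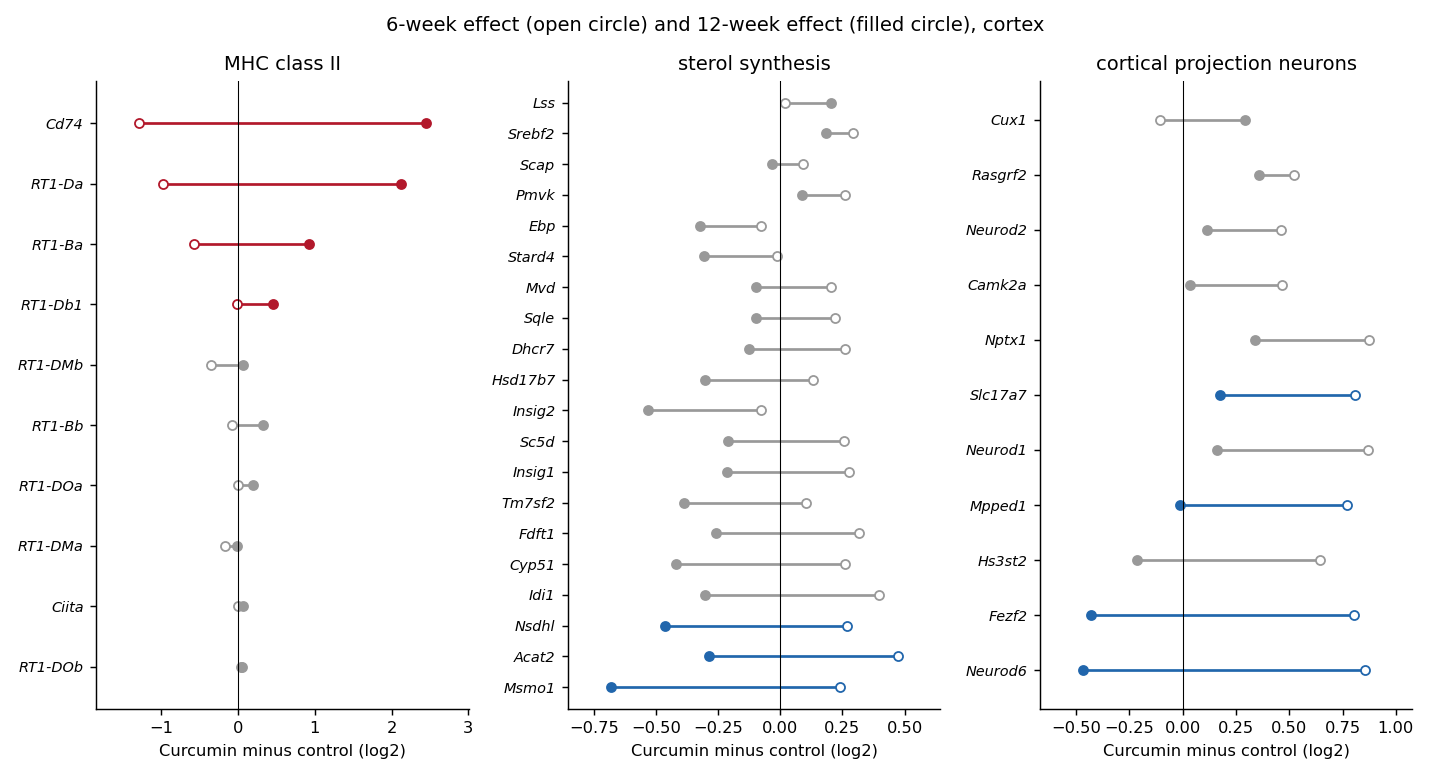
Curcumin minus control (log2, x axis) at 6 weeks (open circles) and 12 weeks (filled circles) for every measured gene of 3 lists, coloured where the difference of effects was called (red higher, blue lower at 12 weeks). Cd74, RT1-Da and RT1-Ba cross 0 from left to right, and 14 of 20 sterol genes cross from right to left.

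Genes of cortical projection neurons had the lowest list median of the difference of effects, -0.63 over 11 measured genes. Of these, 10 were negative and 4 called lower, compared with 50.2% and 1.47% of all genes. Fezf2, which specifies deep-layer projection neurons, measured 8.03 and 8.15 with curcumin and 7.46 and 7.11 in controls at 6 weeks, and 7.85 and 7.46 against 8.28 and 7.88 at 12 weeks. Neurod6, a transcription factor of excitatory neurons, measured 8.18 and 8.76 against 7.79 and 7.43, and then 8.17 and 8.39 against 8.91 and 8.59. The 6-week control arrays were the lowest of the 8 in Neurod6 and among the lowest in Fezf2. Their differences of effects were -1.23 ± 0.26 and -1.32 ± 0.27 (adjusted p = 0.0448 and 0.0423). Slc17a7, the vesicular glutamate transporter, did not change sign, at 0.81 higher with curcumin at 6 weeks (adjusted p = 0.037) and 0.17 higher at 12 weeks, and Mpped1 went from 0.77 to -0.01. The 4 calls were lost without 6 of the 8 arrays each, among them control array 2 at 6 weeks, with values from -1.61 to -0.52. The projection neuron levels given above include these 4 genes, so they are no separate observation. Against the mean of the 8 arrays, olfactory bulb markers were at 0.28 and 1.33 on the 6-week control arrays, and myelin markers at 0.67 and 0.25. Myelin markers were also at 0.18 on curcumin array 2 at 6 weeks and 0.21 on control array 2 at 12 weeks. The part of these levels in the values of the 4 genes was not tested.

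Called members of the receptor and synapse lists are given as counts, beside which 1.47% of all genes were called lower. Htr2a, the serotonin 2A receptor, had the lowest value of any called gene. It measured 7.67 and 8.28 with curcumin and 7.48 and 7.50 in controls at 6 weeks, and 6.93 and 7.16 against 8.60 and 8.52 at 12 weeks. Curcumin arrays were 1.40-fold the controls at 6 weeks and 0.349-fold at 12 weeks, without overlap at either time, and the difference was -2.0 ± 0.27 (adjusted p = 0.0137). Gabra3, a subunit of the GABA-A receptor, measured 9.52 and 9.27 against 8.88 and 8.83, and then 8.89 and 8.88 against 9.64 and 9.41. It reversed by -1.17 ± 0.16 (adjusted p = 0.0142). Both calls were lost without control array 1 or curcumin array 2 at 12 weeks or control array 2 at 6 weeks, with adjusted p up to 0.087. Htr2a was the gene called of 13 serotonin receptors (list median -0.22) and Gabra3 of 11 measured GABA-A subunits (median -0.27). Sv2b, a synaptic vesicle protein, Nsf, the ATPase that recycles SNARE complexes, and Slc17a7 were the 3 called among 26 measured vesicle release genes (median -0.25), Sv2b at -1.12 ± 0.23 and Nsf at -0.56 ± 0.10. Chrna5, a nicotinic receptor subunit, was at -1.30, Scn2a, a sodium channel, at -0.68 and Cck, the peptide cholecystokinin, at -0.85. The calls of Sv2b, Nsf, Chrna5, Scn2a and Cck were lost without the same 3 arrays and others.

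Ncs1 and Abhd8 were the strictest reversals. Ncs1, a neuronal calcium sensor, measured 9.67 and 9.62 with curcumin and 9.29 and 9.28 in controls at 6 weeks, and 9.52 and 9.49 against 9.74 and 9.73 at 12 weeks. The effect was 0.36 at 6 weeks and -0.23 at 12 weeks (adjusted p = 0.049 and 0.044). The hydrolase Abhd8 measured 8.72 and 8.84 against 8.37 and 8.32, and then 8.98 and 8.96 against 9.24 and 9.30, with effects of 0.44 and -0.30 (adjusted p = 0.049 and 0.038). Their differences of effects were -0.59 ± 0.08 and -0.74 ± 0.10. In both genes the controls moved most between the durations, by 0.45 and 0.93, and the curcumin arrays by -0.14 and 0.19. Both differences lost their call without control array 1 or curcumin array 2 at 12 weeks or control array 2 at 6 weeks (adjusted p up to 0.087 and 0.066).

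The time change in the controls was the larger part of many of these differences. From 6 to 12 weeks 2421 clusters (8.85%) were called in the cortex controls and 887 (3.24%) in the curcumin arrays. The 2 durations are separate groups of rats, older at 12 weeks, so no animal was followed over time. Among the 402 clusters, controls and curcumin arrays moved in opposite directions over time in 351, and the change was larger in the controls in 262. The difference of effects is the curcumin change minus the control change, so a call favours opposite directions. The shares over all clusters were not counted. Across all clusters the difference of effects correlated at -0.73 with the change in controls and 0.45 with that in curcumin arrays. In some genes the curcumin arrays moved more. Amd1, which makes the aminopropyl donor for polyamines, was 8.92 and 9.17 with curcumin and 8.95 and 9.12 in controls at 6 weeks, and 8.47 and 8.41 against 9.13 and 9.16 at 12 weeks. Its controls changed by 0.11 and the curcumin arrays by -0.61, a difference of -0.72 ± 0.11 (adjusted p = 0.0209). Azin1, the antizyme inhibitor, changed by 0.06 in controls and -0.52 with curcumin, and Vps35, a core retromer protein, by 0.14 and -0.61. Oaz1, antizyme, moved in both arms, by 0.39 in controls and -0.26 with curcumin, as did Rfk, riboflavin kinase (0.37 and -0.29), and Slc35b4, a nucleotide sugar carrier (0.29 and -0.36). The differences of effects were -0.58 for Azin1, -0.75 for Vps35, -0.65 for Oaz1, -0.66 for Rfk and -0.65 for Slc35b4, and the 11 measured polyamine genes had a median of -0.10. These 6 calls were lost without control array 1 or curcumin array 2 at 12 weeks and control array 2 at 6 weeks, and the values stayed between -0.85 and -0.48.

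Among the remaining genes with the lowest differences of effects were Rasl10a, a Ras-like protein (-1.24), Gpr22, an orphan receptor (-1.22), Mal2 (-1.15), Pno1, a ribosome assembly factor (-1.13), the ephrin receptor Ephb6 (-1.12) and Dnajc30 (-1.11). All of them except Gpr22 had both curcumin arrays above the controls at 6 weeks and below them at 12 weeks. That order was found in 219 of the 280 clusters called lower. The highest, besides the genes above, were Slfn9 (1.24), Leng8 (1.12), Kmt5c, a histone H4 methyltransferase (1.03), Cep295nl (0.99), the kinase Hipk2 (0.89) and the pseudokinase Nrbp2 (0.89). Each of these 12 calls stood in 2 to 5 of the 8 leave-one-out fits, and all were lost without control array 1 or curcumin array 2 at 12 weeks or control array 2 at 6 weeks. Leng8 has another cluster at 0.63 that was not called.

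Groups named after their called members had been seen are given as counts, beside which 49.8% of all genes had a positive difference, 0.384% were called higher and 1.47% lower. Higher at 6 weeks and lower at 12 weeks were 26.9% of all genes. Of 22 measured vacuolar proton pump subunits 18 had a negative difference of effects and 3 were called, Atp6v1a (-0.70), Atp6v1b2 (-0.64) and Atp6v0e2 (-0.51), with 16 higher at 6 weeks and lower at 12 weeks. Of 28 measured splicing factors 25 were positive and 4 were called, Sf1 (0.67), Snrnp70 (0.65), Srrm1 (0.65) and Srrm2 (0.70), with a median of 0.33. Of 27 measured histone lysine methyltransferases 18 were positive and 5 were called, Kmt5c, Dot1l (0.80), Kmt2d (0.70), Nsd3 (0.48) and Setd5 (0.43), with a median of 0.09, beside 0.00 over all clusters. The 12 calls were lost without control array 1 or curcumin array 2 at 12 weeks and control array 2 at 6 weeks.

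**Figure D5:**
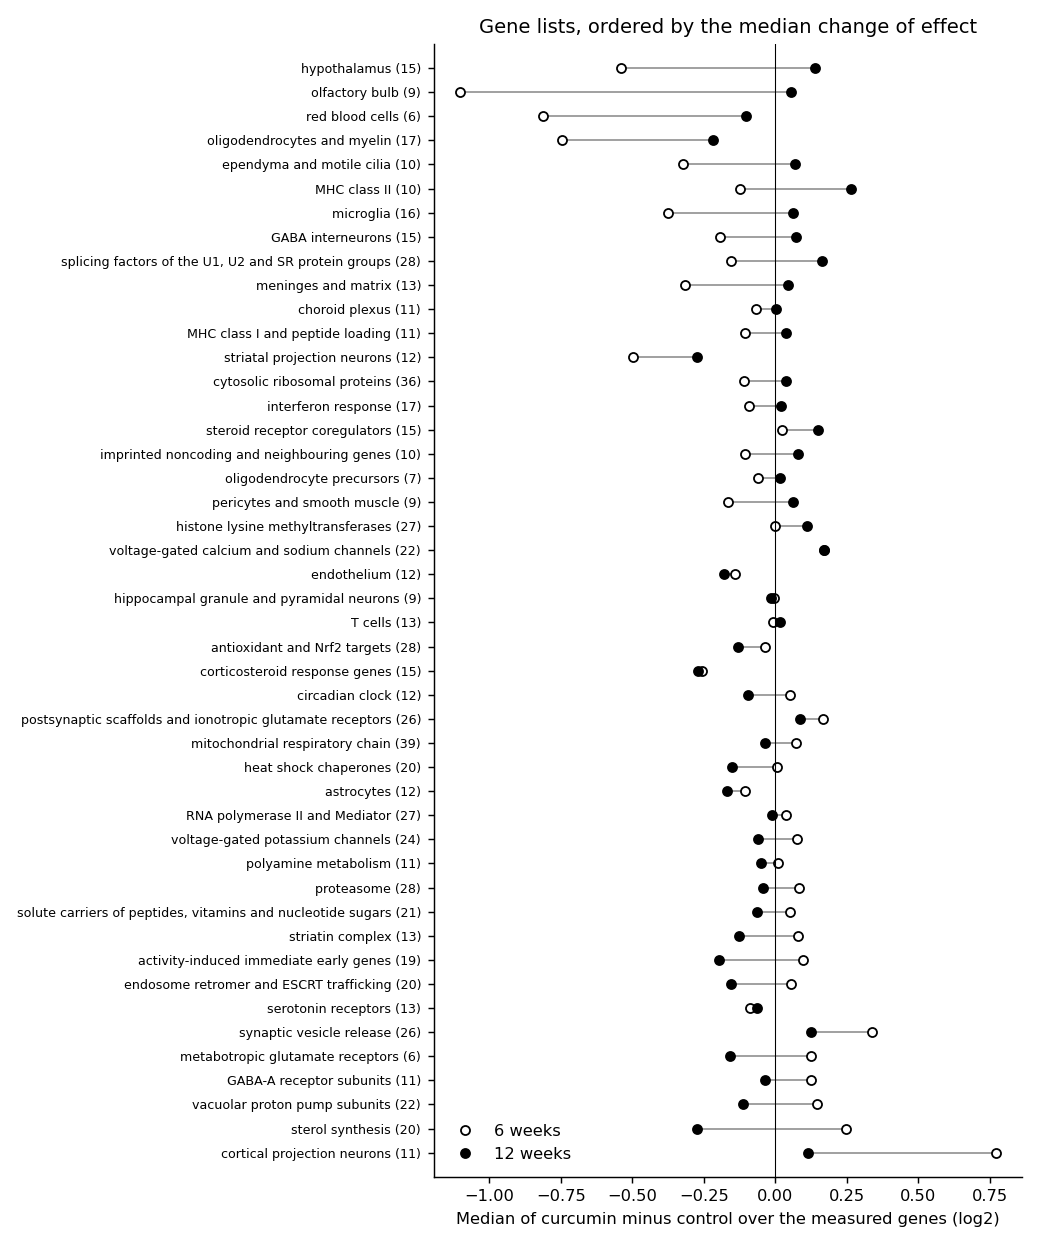
Median curcumin effect (log2) over the measured genes of each list at 6 weeks (open circles) and 12 weeks (filled circles), with the number of genes in brackets, ordered by the median difference of effects. Sterol synthesis crosses 0 from right to left, and MHC class II, olfactory bulb and hypothalamus cross from left to right.

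Other pathways had 1 called member or 0. Of all genes, 49.8% had a positive difference, 0.384% were called higher and 1.47% lower. Higher at 6 weeks and lower at 12 weeks were 26.9% of all genes. Immediate early genes were negative in 14 of 19 (median -0.21) with Klf10 called at -0.95 ± 0.17, and heat shock chaperones had a median of -0.09 with Dnajb1 called at -0.67 ± 0.11. The respiratory chain had a median of -0.09 over 39 genes, with 19 higher at 6 weeks and lower at 12 weeks, and the Rieske protein Uqcrfs1 was called in the opposite direction (0.58 ± 0.11). Ccnc, cyclin C, was the gene called of 27 from RNA polymerase II and Mediator (-0.59 ± 0.10). Cytosolic ribosomal proteins were positive in 29 of 36 (median 0.15) with 0 calls. The antioxidant and Nrf2 targets, a pathway often tied to curcumin, had a median of -0.02 over 28 genes (0.03 after quantile normalization), 14 positive, and 0 calls. Corticosteroid response genes (median -0.03, and 0.05 after quantile normalization), clock genes (-0.07, with Per3 at 0.92, not called), proteasome genes (-0.11), postsynaptic and ionotropic glutamate receptor genes (-0.08), metabotropic glutamate receptors (-0.26) and potassium channels (-0.10) had 0 calls as well. GABA interneuron genes had a median of 0.36 with Cck called in the opposite direction, and myelin genes of 0.51, astrocyte genes of -0.09 and endothelial genes of 0.02 with 0 calls. Of the 18 measured genes that the study's tables name for the cortex, which were picked on these arrays and are no independent evidence, Cd74, RT1-Da, Fezf2, Neurod6 and Htr2a were called.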

How the data were processed

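Log2 values were deposited by the authors for 16 rat arrays, made with Affymetrix Expression Console and RMA according to the submitters' processing notes, with versions not given in the sources used here. The methods give a rat exon array as the platform, but the annotation matches a rat gene array, which was not settled, and no probe-level data were used here. Of 27342 clusters, 15097 have 1 gene symbol, 323 several and 11922 none. A gene is represented by its brightest cluster. Group means of all 16 arrays were fitted with limma 3.58.1 in R 4.3.3 (lmFit, contrasts.fit, eBayes, 8 residual and 3.12 prior degrees of freedom), with Benjamini-Hochberg adjustment over all clusters and calls under 0.05. The steps were tested on simulated data. Figures were drawn with matplotlib 3.10.9. Named are the 12 highest and 12 lowest called genes, the 8 largest reversals in each direction, reversals with both effects called, up to 3 members of each list by moderated t, and the cortex genes of the study's tables. Further list members, Cox11 and the unnamed cluster were chosen after their values were seen. Members and gene lists were chosen with earlier results of these data known, some around single genes that lead the comparison. Lists were described by counts and medians only. Also tried were leaving out dim clusters, normalizing by quantiles, cortex arrays alone, array weights, robust estimation with a variance trend, a replicate block, a random pool block (statmod 1.5.0), 1-symbol clusters alone, an adjusted p under 0.1, leave-one-out fits and the mean over a gene's clusters.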

Additional observations from a re-analysis of the deposited data

Results flagged for a closer look

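The named genes below drew attention because their curcumin effects at 6 and 12 weeks differed by the limma test of that difference itself (adjusted p under 0.05). Each value is the 12-week effect minus the 6-week effect on the log2 scale. The effect was higher at 12 weeks for Cd74 (3.73), RT1-Da (3.10), RT1-Ba (1.51), Cd68 (1.37), Slfn9 (1.24), Leng8 (1.12), Kmt5c (1.03), Cep295nl (0.99), Hipk2 (0.89), Wbp2 (0.89), Nrbp2 (0.89), Meg3 (0.87), Dot1l (0.80), Srrm2 (0.70), Kmt2d (0.70), Sf1 (0.67), Srrm1 (0.65), Snrnp70 (0.65), Uqcrfs1 (0.58), Nsd3 (0.48), RT1-Db1 (0.47) and Setd5 (0.43).

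It was lower at 12 weeks for Htr2a (-2.0), Neurod6 (-1.32), Chrna5 (-1.30), Rasl10a (-1.24), Fezf2 (-1.23), Gpr22 (-1.22), Gabra3 (-1.17), Mal2 (-1.15), Pno1 (-1.13), Ephb6 (-1.12), Sv2b (-1.12), Dnajc30 (-1.11), Slc15a2 (-1.06), Klf10 (-0.95), Mob4 (-0.94), Msmo1 (-0.92), Cck (-0.85), Cox11 (-0.78) and Mpped1 (-0.78). Smaller negative values were found for Acat2 (-0.76), Vps35 (-0.75), Abhd8 (-0.74), Nsdhl (-0.73), Amd1 (-0.72), Atp6v1a (-0.70), Scn2a (-0.68), Dnajb1 (-0.67), Rfk (-0.66), Oaz1 (-0.65), Slc35b4 (-0.65), Atp6v1b2 (-0.64), Slc17a7 (-0.63), Ccnc (-0.59), Ncs1 (-0.59), Azin1 (-0.58), Nsf (-0.56) and Atp6v0e2 (-0.51).

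A difference between tissues was called by the same tool for 5 clusters. The cortex value minus the hippocampus value was -1.01 for Cox11, 1.01 for Meg3, -1.0 for Slc15a2, 0.98 for Wbp2 and 2.77 for an unnamed cluster.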

How the results depend on the processing

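None of the 59 called genes changed sign under an alternative. They were picked for a large difference on these same arrays, which each alternative fits again, so a kept sign was nearly assured. Quantile normalization of all arrays turned the sign of list medians near 0, from -0.03 to 0.05 for corticosteroid response genes, from -0.02 to 0.03 for antioxidant and Nrf2 targets and from 0.01 to -0.0015 for T cells. The counts that moved by more than 1.5 times are given against 122 clusters higher, 280 lower, 219 reversed from above to below the controls, 77 from below to above, 2 reversed with both effects called and 5 differing between tissues. Quantile normalization gave 273 higher and 201 below-to-above over all arrays, 261 and 192 within each tissue, and 1 with both effects called in either. The cortex arrays alone gave 1 higher, 0 lower, 0 reversed in either direction and 0 with both effects called, and the tissue difference cannot be fitted there. Array weights gave 58 higher, 162 lower, 135 above-to-below, 40 below-to-above and 0 with both effects called. An adjusted p under 0.1 gave 361 higher and 654 lower. Without the dimmest 25% of clusters 1 had both effects called and 0 differed between tissues, and with 1-symbol clusters alone 5 had both effects called. Leaving out each cortex array in turn gave 3 to 443 higher, 5 to 598 lower, 5 to 509 above-to-below, 1 to 309 below-to-above, 0 to 46 with both effects called and 1 to 71 between tissues. In every count the fewest or joint fewest remained without curcumin array 2 at 12 weeks and the most without control array 1 at 6 weeks. Deviations of same-numbered cortex arrays correlated at -0.259 to 0.174 between groups, over 0.1 in 1 of 6 pairs of groups. Between cortex and hippocampus at the same diet and duration they correlated at -0.154 to 0.162, over 0.1 in 3 of 4 pairs. Whether the replicate numbers pair the tissues was not settled. A random block for the pool had a consensus correlation of 0.0389 and gave 119 higher and 282 lower. With the replicate block 124 were higher, 244 lower, 191 above-to-below, 83 below-to-above, 0 with both effects called and 1 between tissues. With 2 arrays per group the number of arrays limits the precision, and no probe-level signal over background was used. The causes of these shifts were not tested.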
